A study of Mus musculus with 48 samples.

Results

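The genes of mitochondrial fatty acid oxidation and ketone body metabolism were followed in mouse skin after treatment with inhibitors of DGAT1, the enzyme that catalyses the last step of triglyceride synthesis. The 36 members were chosen by symbol from their known function in this pathway. Of these, 33 were measured, through 48 probesets, among 19147 genes named by a probeset on a custom Affymetrix mouse array. Acadm, Acad12 and Hadh had no probeset matched to them alone and were not analysed here. All 33 measured members passed the filter on low intensities.

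The series held 48 arrays of dorsal skin from C57BL/6 mice aged 8 weeks, treated for 14 days. By the study's methods the mice were male, had been made obese on a high-fat diet, which the vehicle groups shared, and were dosed by mouth, with the vehicle groups given methylcellulose. Study 1 had a vehicle group, a Cpd1 group and a Cpd2 group of 8 mice each. Study 2 had vehicle, Cpd2 and Cpd6 groups, and Study 4 had vehicle, Cpd6 and Cpd18 groups, each of 4 mice. In the study's histology Cpd2 and Cpd6 were scored with sebaceous gland atrophy, and Cpd1 and Cpd18 as without it. The dose was 30 mg/kg in the methods where no other was given, but 3 mg/kg was named for Cpd1 beside the histology, so Cpd1 is not known to match Cpd2 in dose. The compounds came from different structural series, except that Cpd6 and Cpd18 shared 1 series, whose structures were not shown. Each array is written here as 1 mouse. The labels number the replicates without saying that each was a separate animal, so p-values measure the spread between these samples.

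Fatty acids are activated to acyl-CoA and then either stored in triglyceride or burnt. Long-chain acyl groups enter mitochondria through the carnitine shuttle. CPT1 loads them onto carnitine at the outer membrane, SLC25A20 carries acylcarnitine across the inner membrane, and CPT2 returns the acyl group to CoA. Each turn of beta-oxidation then uses an acyl-CoA dehydrogenase, a hydratase, a hydroxyacyl-CoA dehydrogenase and a thiolase, and the electrons from the first step reach the respiratory chain through the electron transfer flavoprotein. Liver turns surplus acetyl-CoA into ketone bodies, and other tissues, muscle among them, burn these through BDH1, OXCT1 and ACAT1. Skeletal muscle is rich in this pathway and uses the CPT1B form, whereas CPT1A is the form of liver and many other tissues. Mouse dorsal skin carries a thin sheet of skeletal muscle, the panniculus carnosus, under the fat.

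Because a skin biopsy can hold more or less of that sheet, cell type markers were measured beside the members. The epidermal keratins Krt1 and Krt10 were high in all 48 arrays, at 11.2 to 12.42 and 12.14 to 12.98 on the log2 intensity scale. Skeletal muscle was summarised by a muscle score, the mean log2 intensity of 20 muscle markers, none of them a member. Outside the Cpd2 group of Study 1, the score lay between 11.19 and 12.2 in every mouse but vehicle replicate 4 of Study 1, which was at 9.97. In the 8 Cpd2 mice of Study 1 it was 11.2, 8.03, 5.34, 7.21, 11.32, 10.6, 6.14 and 11.75 (replicates 1 to 8). Replicates 2, 3, 4 and 7 of that group therefore stood apart, and the main Study 1 results for Cpd2 are also given without them. In whole skin, fewer cells of a type and less RNA per cell cannot be told apart.

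Regulatory sequence is shown for genes on which the results turn, from RefSeq promoters on mouse build GRCm38.p6. Ucp3, Acot2 and Pdk4 are shown because they changed in the treated skin, and Acot1 because it lies near Acot2 and moved the other way in Study 4. Hadha and Hadhb, the subunits of the trifunctional protein, have start sites 272 bases apart, so the window shown is the stretch their promoters share. The 250 bases before each start site were searched on both strands for AGGTCA, the half-site of many nuclear receptors, PPAR alpha among them, for its direct repeat with 1 base between the copies (DR1), and for CAGCTG, an E-box of the kind bound by myogenic factors. Matches are in capitals.

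Ucp3, chr7:100472741-100472990, plus strand: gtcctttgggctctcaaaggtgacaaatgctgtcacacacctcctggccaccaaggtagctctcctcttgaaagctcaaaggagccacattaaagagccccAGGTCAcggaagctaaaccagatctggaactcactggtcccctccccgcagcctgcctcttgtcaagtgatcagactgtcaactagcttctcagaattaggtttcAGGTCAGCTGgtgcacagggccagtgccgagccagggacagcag

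Acot2, chr12:83987611-83987860, plus strand: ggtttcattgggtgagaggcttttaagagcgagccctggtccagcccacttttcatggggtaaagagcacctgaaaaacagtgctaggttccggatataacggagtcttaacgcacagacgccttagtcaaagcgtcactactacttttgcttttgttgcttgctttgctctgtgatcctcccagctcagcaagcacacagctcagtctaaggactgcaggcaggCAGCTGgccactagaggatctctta

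Acot1, chr12:84009252-84009501, plus strand: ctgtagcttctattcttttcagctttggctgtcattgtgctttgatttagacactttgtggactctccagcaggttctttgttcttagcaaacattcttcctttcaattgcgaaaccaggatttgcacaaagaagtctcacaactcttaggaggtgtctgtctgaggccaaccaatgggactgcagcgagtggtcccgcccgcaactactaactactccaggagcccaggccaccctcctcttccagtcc

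Pdk4, chr6:5496279-5496528, minus strand: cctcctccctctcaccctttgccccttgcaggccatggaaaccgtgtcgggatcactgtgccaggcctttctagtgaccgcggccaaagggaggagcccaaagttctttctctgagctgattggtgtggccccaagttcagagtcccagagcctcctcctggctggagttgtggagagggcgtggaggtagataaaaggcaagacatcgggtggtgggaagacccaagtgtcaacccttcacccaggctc

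Hadha and Hadhb, chr5:30155003-30155230, plus strand: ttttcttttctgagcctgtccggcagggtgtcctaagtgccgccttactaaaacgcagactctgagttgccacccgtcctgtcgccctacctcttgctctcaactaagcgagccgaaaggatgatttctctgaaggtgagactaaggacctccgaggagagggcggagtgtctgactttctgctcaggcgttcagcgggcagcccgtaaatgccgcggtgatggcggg

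The Ucp3 window held AGGTCA at 2 places, and the one nearer the start site overlapped a CAGCTG by 2 bases. The Acot2 window held CAGCTG near its end, and the Acot1, Pdk4 and Hadha-Hadhb windows held none of the motifs. Of the 36 members, 30 had a promoter in the table, and Cpt1b was not among them. AGGTCA stood in 6 of them (Acadm, Acadvl, Cpt1a, Cpt1c, Echs1 and Ucp3), against 14.0% of all 32851 promoters. CAGCTG stood in 4 (Acadsb, Acot2, Cpt1a and Ucp3), against 13.0% of all, and DR1 stood in 0 members and 0.0335% of all. A match is a run of letters, and no match says only that these letters are not in the window.

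Each compound group was set against the vehicle mice of the same study, by limma on log2 intensity. A member was called where its p, adjusted by Benjamini-Hochberg over all 28789 tested probesets, was under 0.05. Genes counted as fallen, risen or changed are called genes. A difference of 1 on the log2 scale is a doubling of intensity, and intensities are compared within a probeset, never between genes.

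**Figure D1:**
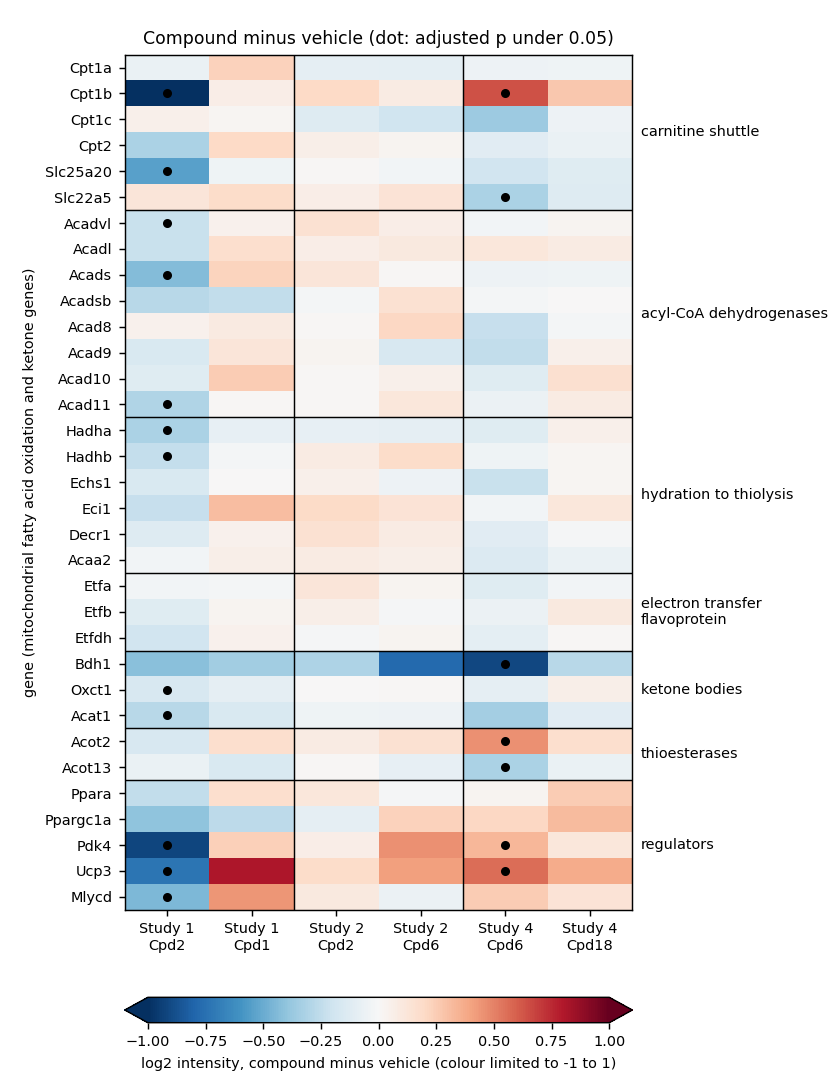
Log2 difference of compound minus vehicle for the 33 measured members (rows, grouped by role) in the 6 comparisons (columns), with colour limited to 1 log2 unit either way and a dot where the limma adjusted p was under 0.05. The Cpd2 column of Study 1 holds 12 dots, all for lower intensity, the Cpd6 column of Study 4 holds 7, and the other 4 columns hold none.

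In Study 1, 12 of the 33 members (36.4%) were called lower in mice given Cpd2 than in vehicle mice, and none was called higher. Cpt1b, the muscle form of the carnitine shuttle enzyme, had the largest change and fell by 2.14 on the log2 scale, or 4.4-fold. Pdk4, the kinase that restrains glucose oxidation, fell by 0.92, and Ucp3, a mitochondrial carrier abundant in muscle, fell by 0.73. Of all tested probesets 13.1% were called in this comparison, 6% lower and 7.09% higher. At an unadjusted p under 0.05 stood 18 members, against 26.2% of all probesets. The median difference over the members was -0.22, with 30 of 33 below 0, against 0.041 over all probesets. None of the members had Cpd2 and vehicle groups that did not overlap, which 1.91% of all probesets had. Leaving out 1 mouse left 5 calls without Cpd2 replicate 7 or vehicle replicate 2, with the share of all probesets not given here. It gave 17 without vehicle replicate 4, when 17.7% of all probesets were called. In the 16 such fits Cpt1b, Slc25a20, Hadha and Acads were always called, while Mlycd was lost in 13, Ucp3 in 12, Acat1 in 11 and Oxct1 in 9.

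Within the carnitine shuttle, 2 of 6 members fell, Cpt1b and Slc25a20. In the vehicle mice of Study 1 Cpt1b had a lowest, median and highest log2 intensity of 5.98, 8.51 and 8.91. In the Cpd2 mice the values of Cpt1b were 8.03, 5.35, 3.64, 4.31, 7.63, 6.84, 4.25 and 8.45 by replicate. Replicate 8 lay among the vehicle mice, replicates 1, 5 and 6 below all of them but vehicle replicate 4, and replicates 2, 3, 4 and 7, the mice with the lowest muscle scores, below them all. The difference was -2.14 ± 0.57 (SE), with an interval of -3.3 to -0.97 and an adjusted p of 0.0116. Slc25a20, the acylcarnitine carrier of the inner membrane, had a lowest, median and highest of 9.49, 10.06 and 10.25 in vehicle mice and 9.27, 9.42 and 9.85 in Cpd2 mice. Every Cpd2 mouse lay below every vehicle mouse but replicate 4, and the difference of Slc25a20 was -0.54 ± 0.10 (adjusted p = 0.000436). Cpt1a, the form that liver and other tissues use, ran from 10.29 to 10.7 in vehicle mice, with a median of 10.38, and from 10.11 to 10.53 in Cpd2 mice, with a median of 10.36. The groups of Cpt1a overlapped, and its difference was -0.07 with an interval of -0.26 to 0.12.

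**Figure D2:**
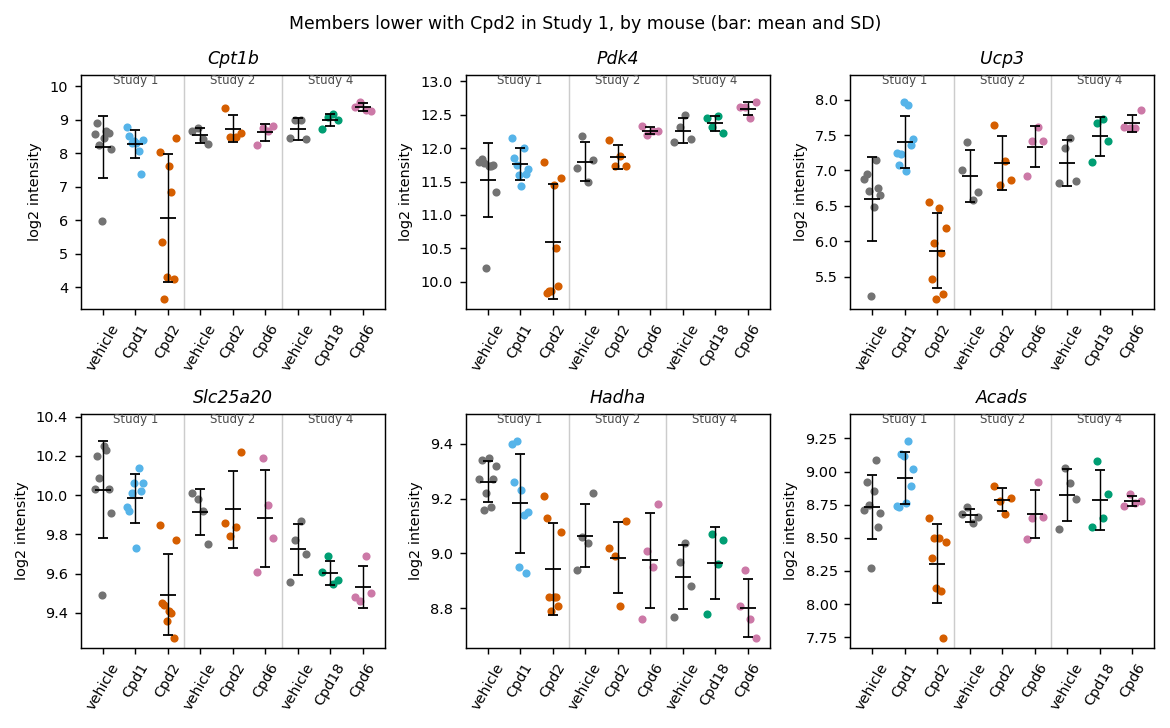
Log2 intensity of Cpt1b, Pdk4, Ucp3, Slc25a20, Hadha and Acads by mouse (points) in the 9 groups of the 3 studies, with group mean and SD. The Cpd2 mice of Study 1 spread widely in Cpt1b, from 3.64 to 8.45, and in Pdk4, from 9.84 to 11.79, while the Cpd2 mice of Study 2 stay between 8.48 and 9.35 in Cpt1b.

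Of the 8 measured acyl-CoA dehydrogenases, which take the first electrons from the acyl chain, 3 fell: Acads, the short-chain enzyme, by 0.43 (adjusted p = 0.0176), Acad11 by 0.30 (0.0266) and Acadvl, the very-long-chain enzyme, by 0.22 (0.0283). Acads ran from 8.27 to 9.09 in vehicle mice and from 7.74 to 8.65 in Cpd2 mice. Acadl, the long-chain enzyme, had a lowest, median and highest of 10.32, 11.0 and 11.15 in vehicle mice and 10.52, 10.74 and 10.87 in Cpd2 mice. All but 1 of the Cpd2 mice lay below all but 1 of the vehicle mice in Acadl, and its difference of -0.22 ± 0.10 did not pass the test (adjusted p = 0.135). Without vehicle replicate 4, that difference was -0.31 ± 0.07 (adjusted p = 0.00394).

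In the later steps of the spiral 2 of 6 members fell, Hadha by 0.32 (adjusted p = 0.00642) and Hadhb by 0.24 (0.0197). These encode the alpha and beta subunits of the trifunctional protein, which performs hydration, dehydrogenation and thiolysis of long chains. Hadha had a narrow vehicle group, from 9.16 to 9.35, and 7 of 8 Cpd2 mice lay below it, with a median of 8.84 and a highest value of 9.21. The other 4 probesets of Hadha differed by -0.25 to 0.26 and did not pass, and the other probeset of Hadhb differed by -0.04, so the probesets of these genes disagree. Decr1, the reductase for unsaturated chains, differed by -0.13 and did not pass, although a dimmer probeset of it did, at -0.54 (0.0313). None of the 3 electron transfer flavoprotein genes passed (Etfa, Etfb and Etfdh, -0.19 to -0.03).

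Of the ketone body genes 2 of 3 fell, Acat1, the thiolase that splits acetoacetyl-CoA, by 0.28 (adjusted p = 0.0418), and Oxct1, which moves CoA onto acetoacetate, by 0.16 (0.0359). Oxct1 had a lowest, median and highest of 11.53, 11.66 and 11.77 in vehicle mice and 11.32, 11.54 and 11.6 in Cpd2 mice. Every Cpd2 mouse lay below every vehicle mouse but replicate 4 in Oxct1. Bdh1, which interconverts the main ketone bodies, ran from 7.41 to 8.9 in vehicle mice and from 7.1 to 7.82 in Cpd2 mice, a difference of -0.42 that did not pass (adjusted p = 0.132). A dimmer probeset of Bdh1 differed by -0.83 and did pass (adjusted p = 0.0023). Neither mitochondrial thioesterase passed (Acot2 -0.16, Acot13 -0.07).

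Of the 5 regulators 3 fell, namely Pdk4, Ucp3 and Mlycd. Pdk4 in vehicle mice was 11.79, 11.84, 11.78, 10.2, 11.73, 11.73, 11.75 and 11.34 by replicate. In Cpd2 mice Pdk4 was 11.79, 9.84, 9.86, 9.87, 11.45, 10.5, 9.93 and 11.56. Replicates 2, 3, 4 and 7 lay near 9.9, below every vehicle mouse, while replicates 1, 5, 6 and 8 lay within the vehicle range, and the difference was -0.92 ± 0.28 (adjusted p = 0.0258). A much dimmer probeset of Pdk4 differed by -0.38 and did not pass (adjusted p = 0.579). Ucp3 had a lowest, median and highest of 5.22, 6.73 and 7.15 in vehicle mice and 5.18, 5.9 and 6.56 in Cpd2 mice, and its difference was -0.73 ± 0.23 (adjusted p = 0.038). Mlycd, whose product removes malonyl-CoA, the inhibitor of CPT1, fell by 0.45 (adjusted p = 0.0497).

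The transcription regulators themselves were not called. Ppara, the fatty acid receptor PPAR alpha, ran from 6.45 to 7.42 in vehicle mice, with a median of 7.29, and from 6.55 to 7.15 in Cpd2 mice, with a median of 6.95. Its difference was -0.25 (adjusted p = 0.143), and -0.36 ± 0.08 (0.00291) without vehicle replicate 4. Ppargc1a, the coactivator PGC-1 alpha, had medians of 4.87 in vehicle and 4.46 in Cpd2 mice, and ran from 3.3 to 5.33 in the latter. The groups of Ppargc1a overlapped throughout (adjusted p = 0.335).

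Markers of several cell types moved with these results. All 20 muscle markers fell with Cpd2 in Study 1, with a median difference of -2.64, while in the Cpd1 group, in Study 2 and with Cpd18 none of the 20 was called against vehicle. Brown adipocyte markers, which mark a cell type rich in this pathway, gave a score of 5.53 to 7.2 in the Cpd2 mice and 6.22 to 7.38 in the vehicle mice, with 2 of 4 called lower. Of these 4 markers, 2 also rose with the muscle score within groups, and the list holds Cox7a1 and Cox8b, which muscle expresses too. White adipocyte markers were called in 0 of 8, and endothelial markers were called lower in 1 of 5 (median -0.42). Keratinocyte markers were called higher in 5 of 6, with a median of 0.41, and T cell markers in 4 of 5, with a median of 0.65. The part of the brown adipocyte, endothelial, keratinocyte and T cell markers in the members' change was not tested. Sebocyte markers were called lower in 5 of 9 with Cpd2 in Study 1, and in 1 of 9 in Study 2. Of the 9, 3 rose with the muscle score within groups of Study 1, against 2.59% of all probesets. Cpd2 replicates 2, 3, 4 and 7 also had the lowest mean sebocyte markers of their group, at 7.91, 7.56, 7.25 and 7.65, with the others at 7.97 to 8.66. Fits with the muscle score or without these mice therefore do not separate muscle from sebaceous gland content, whose parts were not tested.

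Among mice of the same group in Study 1, 2 of the 33 members rose with the muscle score, against 3.14% of all probesets called and 2.59% called with a rise. Cpt1b rose by 0.78 ± 0.05 log2 units per unit of score (adjusted p = 5.44e-12) and Pdk4 by 0.34 ± 0.04 (3.19e-06). Under an unadjusted p of 0.05 lay 13 slopes, against 17.9% of all probesets. Ucp3 had a slope of 0.19 ± 0.06 (adjusted p = 0.0614), and the slopes of the other 30 lay between -0.10 and 0.12. The slopes rest largely on the Cpd2 mice, whose scores span the widest range. Without Cpd2 replicates 2, 3, 4 and 7, 14 members were called and 11.0% of all probesets, and with vehicle replicate 4 left out as well 2 members and 1.07% of all probesets.

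**Figure D3:**
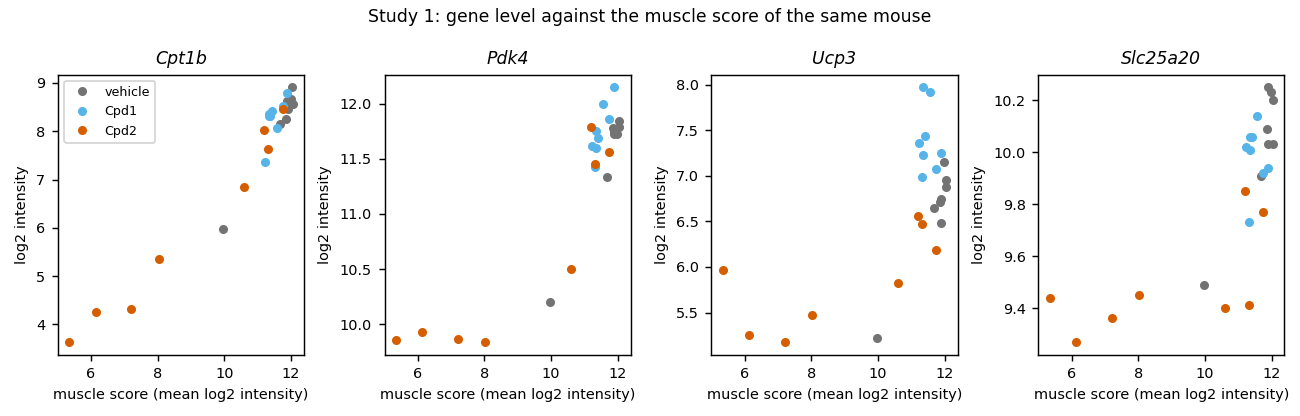
Log2 intensity of Cpt1b, Pdk4, Ucp3 and Slc25a20 against the muscle score of the same mouse (mean log2 intensity of 20 skeletal muscle markers) for the 24 mice of Study 1, by group. The mice with scores under 9 are all from the Cpd2 group, and Cpt1b falls with the score from about the vehicle level down to 3.64.

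With the muscle score as a covariate, 0 of the 33 members were called for Cpd2 minus vehicle in Study 1 by limma, with 5 under an unadjusted p of 0.05, while 3.27% of all probesets were. The difference of Cpt1b became -0.03 ± 0.22 (adjusted p = 0.976), that of Pdk4 -0.01 ± 0.19 (0.975) and that of Ucp3 -0.22 ± 0.25 (0.76). Slc25a20 moved less, to -0.35 ± 0.11 (0.074), as did Hadha, to -0.23 ± 0.10 (0.225). Oxct1 kept its size, at -0.18 ± 0.06 (0.13), and Bdh1 was at -0.68 ± 0.21 (0.0777). The median over the members was then -0.09.

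Leaving out Cpd2 replicates 2, 3, 4 and 7, those with a score under 9, also left 0 members called, with 7 under an unadjusted p of 0.05 and 3.36% of all probesets called. Cpt1b then differed by -0.46 ± 0.39 (adjusted p = 0.637) and Slc25a20 by -0.42 ± 0.12 (0.0542). Pdk4 was at -0.20 ± 0.25 (0.782), Ucp3 at -0.34 ± 0.26 (0.599), Hadha at -0.27 ± 0.10 (0.136), Acads at -0.30 ± 0.13 (0.266) and Oxct1 at -0.18 ± 0.07 (0.145). With vehicle replicate 4 left out as well, 3 members and 7.07% of all probesets were called: Slc25a20 at -0.50 (0.00216), Acad11 at -0.35 (0.0117) and Mlycd at -0.46 (0.0459).

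**Figure D4:**
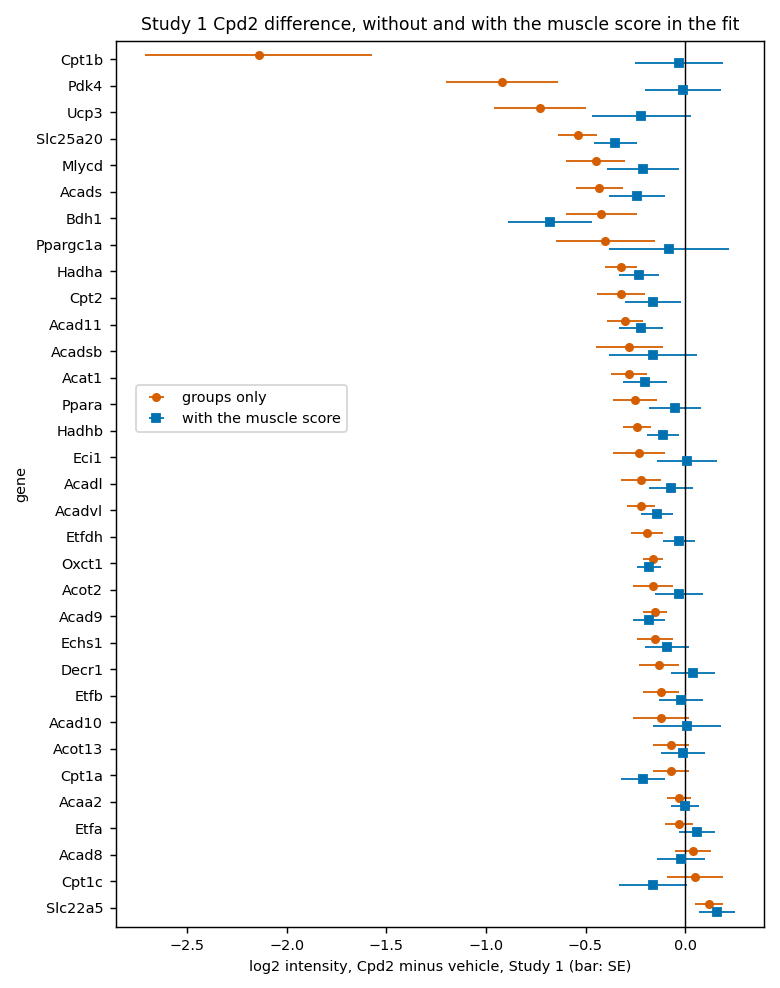
Log2 difference of Cpd2 minus vehicle in Study 1 for each of the 33 members, ± SE, from the fit without and with the muscle score as a covariate. Cpt1b moves from -2.14 to -0.03 and Pdk4 from -0.92 to -0.01, while Slc25a20, Hadha and Oxct1 move less.

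For Cpd1 in Study 1, no member passed the test. By limma 0 of 33 were called against 0.327% of all probesets, and by the methods' test 0. At an unadjusted p under 0.05 there were 5, against 13.2% of all probesets. The median was 0.04. The largest difference was in Ucp3, which had a lowest, median and highest of 6.99, 7.31 and 7.97 in Cpd1 mice against 5.22, 6.73 and 7.15 in vehicle mice. In Ucp3, 6 of 8 Cpd1 mice lay above all vehicle mice. Its difference was 0.81 ± 0.23 (adjusted p = 0.13), and with the muscle score as a covariate it was 0.84 ± 0.20 (0.0437). Mlycd ran from 8.62 to 9.56 in Cpd1 mice, with a difference of 0.44 (adjusted p = 0.206), and Bdh1 from 6.96 to 8.17, with a difference of -0.35 (0.41). With the hair follicle score as a covariate Mlycd, Bdh1 and Ucp3 were called, at 0.54 (0.0463), -0.54 (0.0264) and 0.99 (0.0149), with 2.42% of all probesets. Of the other members given by mouse, the Cpd1 values overlapped the vehicle values: Cpt1a at 10.35 to 11.03, Acadl at 10.9 to 11.41, Oxct1 at 11.41 to 11.74, Ppara at 7.22 to 7.56, Ppargc1a at 3.45 to 5.21, Pdk4 at 11.43 to 12.15 and Cpt1b at 7.37 to 8.79. In 31 of 33 members the 95% interval of the difference lay within 1 log2 unit either way, with Cpt1b (-1.1 to 1.23) and Ucp3 (0.32 to 1.29) outside. These intervals use 1 spread shared by all groups of Study 1, the Cpd2 mice among them. The SD of Cpt1b was 0.42 in Cpd1, 0.93 in vehicle and 1.91 in Cpd2 mice.

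Set directly against Cpd1, 18 of 33 members (54.5%) were called lower in Cpd2 mice and none higher, with 17.2% of all probesets called, 8.25% lower and 8.99% higher. The count under an unadjusted p of 0.05 was 19, against 31% of all probesets. Ucp3 differed most clearly, by -1.54 ± 0.23 (adjusted p = 0.000111), and every Cpd2 mouse (highest 6.56) lay below every Cpd1 mouse (lowest 6.99). Mlycd differed by -0.89 (0.000388) and Acads by -0.65 (0.000807), also without overlap. Cpt2, Acadl and Ppara did not overlap either, which makes 6 members, against 1.54% of all probesets lower without overlap. The carnitine shuttle gave 4 of these calls (Cpt1a, Cpt1b, Cpt2 and Slc25a20) and the dehydrogenases 5. The ketone body genes gave none, with differences of -0.13 to -0.07. With the muscle score as a covariate 5 calls were left, Ucp3, Mlycd, Acads, Acad9 and Cpt1a, with 5.5% of all probesets called. The call of Cpt1a in the fit without a covariate was lost in 5 of 16 fits that left out 1 mouse. It was also lost by the methods' test and with the hair follicle score as a covariate. Without Cpd2 replicates 2, 3, 4 and 7 there were also 5 calls and 4.62% of all probesets, with Ucp3 at -1.14 (0.0181), Mlycd at -0.76 (0.0287) and Acads at -0.52 (0.0298). In this comparison all 20 muscle markers, 4 of 5 endothelial and 6 of 9 sebocyte markers were called lower, and 6 of 6 keratinocyte and 4 of 5 T cell markers higher. Of 10 markers of growing hair follicles 0 were called, though all were lower, with a median of -2.27.

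In Study 2 no member passed the test for either compound. For Cpd2 minus vehicle limma called 0, against 0.129% of all probesets, and the methods' test 0. Under an unadjusted p of 0.05 lay 1 member (Eci1, 0.19), against 7.38% of all probesets. Eci1 ran from 10.79 to 10.92 in Cpd2 mice and from 10.52 to 10.76 in vehicle mice, without overlap. Cpt1b was 8.68, 8.75, 8.44 and 8.28 in vehicle mice and 9.35, 8.5, 8.48 and 8.62 in Cpd2 mice, and Pdk4 was 11.7, 12.18, 11.49 and 11.82 against 12.12, 11.74, 11.89 and 11.74. Both pairs of groups overlapped, and no Cpd2 mouse of Study 2 had the low values of Cpt1b or Pdk4 seen in Study 1. Ucp3 was 7.0, 7.4, 6.58 and 6.7 in vehicle mice and 7.64, 6.79, 7.14 and 6.86 in Cpd2 mice, again overlapping. The interval of all 33 differences lay within 1 log2 unit either way.

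For Cpd6 minus vehicle in Study 2, limma called 0 members, against 0.379% of all probesets, and the methods' test 0. There were 3 with an unadjusted p under 0.05, against 11.8% of all probesets. Pdk4 was 12.33, 12.2, 12.26 and 12.26 in Cpd6 mice, all just above the 4 vehicle mice, a difference of 0.46 ± 0.12 (adjusted p = 0.117). Without vehicle replicate 2 it was 0.59 ± 0.10 (0.0235). Bdh1 was 7.3, 7.3, 8.01 and 8.22 in vehicle mice and 6.86, 7.09, 6.58 and 7.17 in Cpd6 mice, all below, a difference of -0.78 ± 0.27 (adjusted p = 0.24). In all 4 members had groups that did not overlap (Pdk4, Hadhb and Acad8 higher, Bdh1 lower), against 6.83% of all probesets. Cpt1b was 8.25, 8.75, 8.67 and 8.82 and Ucp3 6.92, 7.41, 7.61 and 7.41 with Cpd6, both within or near the vehicle range. All 10 markers of growing hair follicles were lower in Study 2, with medians of -3.52 for Cpd2 and -4.71 for Cpd6, and 0 called. Their mean score was 4.07, 8.85, 10.44 and 11.45 in vehicle mice and 3.54, 3.69, 5.92 and 3.82 in Cpd6 mice. With this score as a covariate limma called 0 members for Cpd6, with 1 under an unadjusted p of 0.05 and 0.111% of all probesets called. The part of hair follicle content was not tested.

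The other members given by mouse in Study 2 overlapped between the groups. Cpt1a was 10.54, 10.66, 10.67 and 10.61 in vehicle, 10.65, 10.34, 10.42 and 10.71 in Cpd2 and 10.27, 10.73, 10.61 and 10.48 in Cpd6 mice. Acadl was 10.96, 11.15, 10.92 and 10.85 in vehicle, 11.11, 11.03, 11.07 and 10.96 in Cpd2 and 10.95, 11.12, 11.16 and 11.05 in Cpd6 mice. Both genes kept within a narrow band in all 12 mice. Oxct1 was 11.52, 11.48, 11.51 and 11.36 in vehicle, 11.43, 11.53, 11.64 and 11.25 in Cpd2 and 11.43, 11.48, 11.44 and 11.55 in Cpd6 mice. Ppara was 7.26, 7.27, 7.33 and 6.71 in vehicle, 7.35, 6.99, 7.22 and 7.47 in Cpd2 and 6.76, 7.67, 7.06 and 7.05 in Cpd6 mice. Ppargc1a was 4.73, 4.97, 4.71 and 4.34 in vehicle, 5.34, 4.7, 4.82 and 3.51 in Cpd2 and 4.68, 4.69, 5.37 and 4.92 in Cpd6 mice. In Ppargc1a 1 Cpd2 mouse, at 3.51, lay below the others.

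Cpd2 minus Cpd6, within the same study, was called in 0 members and 0% of all probesets by limma, and in 0 members by the methods' test. Under an unadjusted p of 0.05 lay 1 member, against 8.23% of all probesets. That member was Pdk4, at -0.39 (interval -0.65 to -0.13, adjusted p = 0.384). Every Cpd2 mouse (highest 12.12) lay below every Cpd6 mouse (lowest 12.2) in Pdk4. The interval lay within 1 log2 unit for 32 of 33 members.

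In Study 4, Cpd6 changed 7 of 33 members, 4 upward and 3 downward, a share of 21.2% against 10.7% of all probesets, of which 4.56% rose and 6.17% fell. Cpt1b, Ucp3, Acot2 and Pdk4 rose, and Bdh1, Slc22a5 and Acot13 fell. The median over the members was -0.09. In 8 members the Cpd6 and vehicle groups did not overlap, against 18.9% of all probesets, and 14 lay under an unadjusted p of 0.05, against 27.7%. Leaving out Cpd6 replicate 4 or vehicle replicate 4 left 2 calls, with the share of all probesets not given here. Cpt1b was called in every fit that left out 1 mouse. Of the 8 such fits, the call of Acot13 was lost in 7, those of Slc22a5 and Ucp3 in 6 each and that of Pdk4 in 5. Acot2 was lost in 2 and Bdh1 in 1.

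The members that rose included the muscle form of CPT1. Cpt1b was 8.46, 9.01, 9.01 and 8.44 in vehicle mice and 9.38, 9.54, 9.3 and 9.27 in Cpd6 mice, all above, a difference of 0.64 ± 0.14 (adjusted p = 0.0124). Ucp3 was 6.82, 7.31, 7.46 and 6.85 against 7.62, 7.6, 7.6 and 7.85, also all above, at 0.56 ± 0.16 (0.0412). Cpt1b and Ucp3 thus moved upward with Cpd6 here and downward with Cpd2 in Study 1. Acot2, a thioesterase of the mitochondrial matrix that frees long-chain fatty acids from CoA, was 10.16, 10.36, 10.44 and 9.96 against 10.56, 10.8, 10.64 and 10.77. All Cpd6 mice of Acot2 were above all vehicle mice, at 0.46 ± 0.11 (0.0185). Pdk4 was 12.09, 12.32, 12.5 and 12.14 against 12.61, 12.62, 12.45 and 12.69, overlapping by 1 mouse, at 0.33 ± 0.09 (0.0291). Like Cpt1b and Ucp3, Pdk4 had been called lower with Cpd2 in Study 1. So had Mlycd, which did not pass here but ran from 8.8 to 9.09 in Cpd6 mice and from 8.6 to 8.75 in vehicle mice, without overlap.

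Of the members that fell, Bdh1 changed most. Bdh1 was 7.85, 7.5, 7.74 and 8.45 in vehicle mice and 6.69, 7.18, 7.18 and 6.84 in Cpd6 mice, all below, a difference of -0.91 ± 0.21 (adjusted p = 0.0161). Its other probeset differed by -0.86 (0.0298). Slc22a5, the carnitine importer of the cell membrane, was 8.1, 8.21, 8.18 and 8.12 against 7.81, 7.8, 7.78 and 7.92. Acot13, a small thioesterase associated with mitochondria, was 10.43, 10.47, 10.61 and 10.62 against 10.26, 10.25, 10.27 and 10.08. Slc22a5 and Acot13 were each lower in every Cpd6 mouse than in any vehicle mouse and fell by the same amount, 0.32 on the log2 scale (adjusted p = 0.0272 and 0.0418). Acat1 also did not overlap but did not pass, at -0.34 (0.0595).

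**Figure D5:**
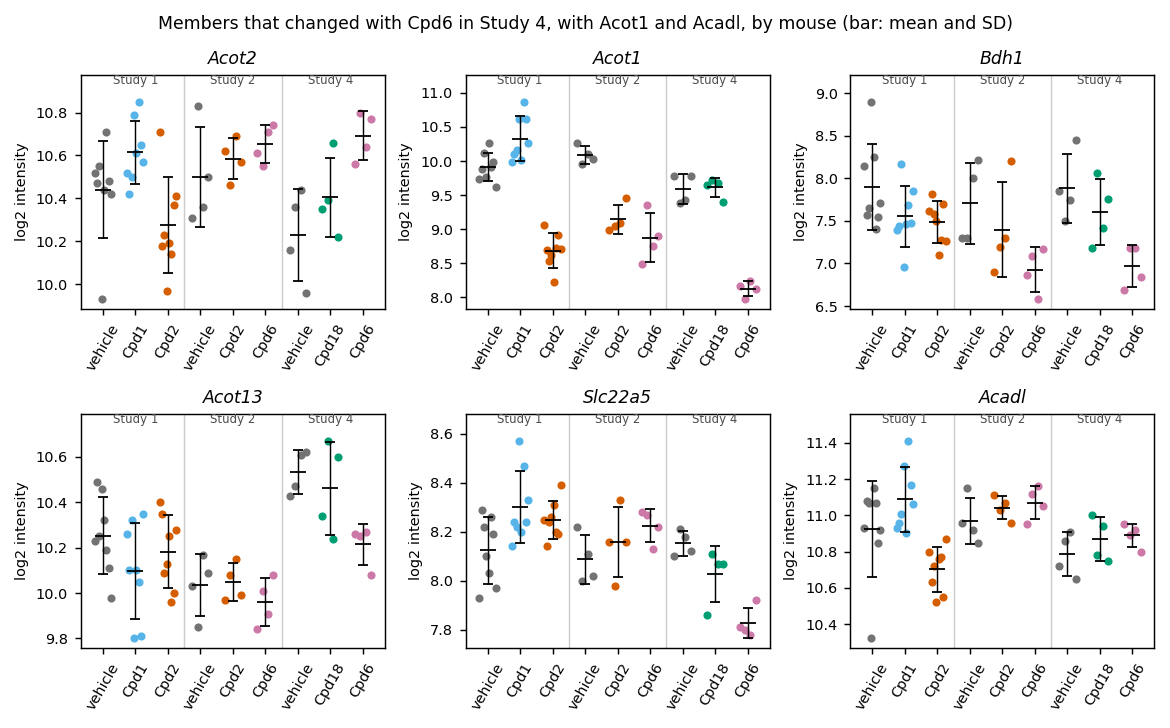
Log2 intensity of Acot2, Acot1, Bdh1, Acot13, Slc22a5 and Acadl by mouse (points) in the 9 groups of the 3 studies, with group mean and SD. In Study 4 the 4 Cpd6 mice lie above the vehicle mice in Acot2 and below them in Acot1, Bdh1, Acot13 and Slc22a5, and overlap them in Acadl.

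None of the 8 acyl-CoA dehydrogenases, the 6 genes of the later steps or the 3 flavoprotein genes passed in Study 4. Acadl was 10.72, 10.86, 10.91 and 10.65 in vehicle, 11.0, 10.78, 10.94 and 10.75 in Cpd18 and 10.95, 10.89, 10.92 and 10.8 in Cpd6 mice. Cpt1a was 9.71, 9.42, 9.66 and 9.58 in vehicle, 9.58, 9.64, 9.57 and 9.43 in Cpd18 and 9.56, 9.46, 9.51 and 9.64 in Cpd6 mice. The 3 groups overlapped in both. Oxct1 was 11.28, 11.47, 11.48 and 11.56 in vehicle, 11.67, 11.49, 11.42 and 11.44 in Cpd18 and 11.31, 11.3, 11.46 and 11.34 in Cpd6 mice. Ppara was 7.38, 7.33, 7.01 and 7.39 in vehicle, 7.49, 7.68, 7.41 and 7.54 in Cpd18 and 7.23, 7.33, 7.47 and 7.2 in Cpd6 mice. Ppargc1a was 5.07, 5.11, 5.77 and 5.12 in vehicle, 5.52, 5.54, 5.71 and 5.6 in Cpd18 and 5.66, 5.56, 5.27 and 5.43 in Cpd6 mice. None of these was called, and the groups overlapped save for Ppara, in which every Cpd18 mouse lay just above every vehicle mouse, at 0.25 ± 0.11 (adjusted p = 0.604).

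Other markers moved with Cpd6 in Study 4. The muscle score was 11.51 to 11.99 in vehicle and 11.77 to 12.2 in Cpd6 mice, with 5 of 20 muscle markers called higher, and with the score as a covariate none of the 7 was called and Acat1 was, at -0.47 (adjusted p = 0.0446), with 3.78% of all probesets. A score of 10 markers of growing hair follicles was 10.64, 3.63, 9.63 and 10.79 in vehicle mice and 3.52, 3.6, 3.98 and 5.96 in Cpd6 mice, and 3 of the 10 were called lower. With the hair follicle score as a covariate 0 members were called, 9 were under an unadjusted p of 0.05 and 1.41% of all probesets were called. Sebocyte markers were called lower in 5 of 9 and macrophage markers in 4 of 4, and endothelial markers were called higher in 3 of 5. With Cpd18, against the same vehicle mice, none of these markers was called. The macrophage median was -0.71 with Cpd18 and -0.72 with Cpd6, the endothelial median 0.28 and 0.4, and the sebocyte median 0.05 and -0.5. With 4 mice a group, the part of each in the result was not tested.

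For Cpd18 minus vehicle, limma called 0 members, against 0.00347% of all probesets, and the methods' test 0. Without adjustment, 2 had a p under 0.05 (Ucp3 and Ppara), against 7.96% of all probesets. In Cpd18 mice Cpt1b was 8.74, 9.1, 9.16 and 9.0, Ucp3 was 7.12, 7.67, 7.73 and 7.41, Acot2 was 10.35, 10.39, 10.66 and 10.22 and Pdk4 was 12.45, 12.32, 12.48 and 12.23. These values overlapped the vehicle group in each case. Bdh1 was 7.18, 8.06, 7.42 and 7.76, Slc22a5 7.86, 8.11, 8.07 and 8.07 and Acot13 10.34, 10.67, 10.24 and 10.6, again overlapping. All 33 intervals lay within 1 log2 unit either way.

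Cpd6 minus Cpd18, of 1 structural series and within the same study, was called in 0 members by limma, against 0.49% of all probesets, and in 0 by the methods' test. Without adjustment, 9 had a p under 0.05, against 12.5% of all probesets. The largest differences were -0.63 for Bdh1 (interval -1.08 to -0.19, adjusted p = 0.244) and 0.37 for Cpt1b (0.07 to 0.67, 0.302). The interval lay within 1 log2 unit for 32 of 33 members, all but Bdh1. The calls of Cpd6 against vehicle and the lack of calls of Cpd18 therefore do not show that the compounds differ in these genes. The comparisons share the same 4 vehicle mice.

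The differences between studies were tested in 1 limma fit of all 48 arrays. For Cpd2, the effect in Study 1 less the one in Study 2 gave 0 calls among the members, against 0.726% of all probesets. Under an unadjusted p of 0.05 lay 12, against 15.4% of all probesets. Slc25a20 came nearest, at -0.55 (adjusted p = 0.0663), and Cpt1b was at -2.34 (0.104). Without vehicle replicate 4 of Study 1, 10 members were called, among them Slc25a20 at -0.63 (0.0059), Cpt1b at -2.66 (0.0201), Ucp3 at -1.11 (0.0219) and Pdk4 at -1.19 (0.028), with 5.28% of all probesets. Leaving out Cpd2 replicate 8 or 1 of Study 1 gave 4 and 3 calls, with Slc25a20, Cpt1b and Acadvl in both and 2.7% and 1.84% of all probesets called. Without Cpd2 replicates 2, 3, 4 and 7 of Study 1, 0 members were called, with 4 under an unadjusted p of 0.05 and 0.0208% of all probesets called, and the median was -0.19 against -0.24. With the muscle score as a covariate 0 were called, with 2 under an unadjusted p of 0.05 and 0.00347% of all probesets called. For Cpd6, the effect in Study 2 less the one in Study 4 gave 0 calls among members and 0% over all probesets, with 2 members under an unadjusted p of 0.05, against 7.72%.

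Around the members stand 25 genes of neighbouring steps, of which 21 were measured. In Study 1, 5 of the 21 were called lower with Cpd2 and none higher, against 6% of all probesets lower and 7.09% higher: Acot1, Crat, Acacb, Pcca and Eci2. In Study 2, Acot1 alone was called lower with Cpd2, against 0.129% of all probesets called. Crat was not called there, though it ran from 6.39 to 6.7 in Cpd2 mice and from 6.87 to 7.09 in vehicle mice. Acot1 and Crat were called lower with Cpd6 in Study 2, against 0.379%. In Study 4, 6 were called lower with Cpd6 and 1 higher, against 6.17% of all probesets lower and 4.56% higher. With Cpd1 and Cpd18 0 of 21 were called by limma.

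Acot1, a cytosolic thioesterase of long-chain acyl-CoA known as a target of PPAR alpha, fell with Cpd2 in Studies 1 and 2 and with Cpd6 in Studies 2 and 4. It ran from 9.62 to 10.26 in vehicle and from 8.22 to 9.06 in Cpd2 mice of Study 1, without overlap. The difference of Acot1 was -1.22 ± 0.13 (adjusted p = 5.08e-07), and with the muscle score as a covariate it was again -1.22 (7.41e-05), and without Cpd2 replicates 2, 3, 4 and 7 it was -1.23 (0.000151). In Study 2 Acot1 was 10.26, 9.95, 10.1 and 10.03 in vehicle, 8.98, 9.05, 9.09 and 9.45 in Cpd2 and 8.49, 9.36, 8.75 and 8.9 in Cpd6 mice. All treated mice were below all vehicle mice, at -0.94 for Cpd2 (0.0313) and -1.21 for Cpd6 (0.00199). The Cpd2 call of Study 2 was lost in 6 of the fits that left out 1 mouse.

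In Study 4 Acot1 was 9.78, 9.38, 9.42 and 9.78 in vehicle, 9.65, 9.72, 9.68 and 9.4 in Cpd18 and 8.17, 7.97, 8.24 and 8.12 in Cpd6 mice. The Cpd18 mice lay among the vehicle mice, and the Cpd6 mice lay below both. The difference was -1.47 ± 0.11 for Cpd6 (adjusted p = 3.78e-06) and 0.02 for Cpd18 (0.977), and Cpd6 minus Cpd18 was -1.49 (3.65e-06). With the hair follicle score as a covariate, Cpd6 minus vehicle was -1.37 for Acot1 (7.79e-05). Acot1 fell where its neighbour Acot2 rose. These paralogs are near-identical in sequence, so part of the signal of either probeset may come from the other gene, which was not tested.

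Crat, which exchanges acetyl groups between CoA and carnitine, fell by 1.13 with Cpd2 in Study 1 (adjusted p = 1.38e-05) and by 0.94 with Cpd6 in Study 2 (0.0232). The Study 2 call of Crat was lost in 5 of the 8 fits that left out 1 mouse, and the Study 1 difference without Cpd2 replicates 2, 3, 4 and 7 was -0.94 (0.00333). The study had picked Crat on these samples, so it is not independent evidence. Acacb, which makes the malonyl-CoA that restrains CPT1, fell by 1.10 with Cpd2 in Study 1 (2.89e-05), and ran from 5.72 to 6.84 in vehicle mice and from 4.74 to 5.69 in Cpd2 mice. The mean of Acacb was 5.85 in vehicle, 5.37 in Cpd2 and 5.08 in Cpd6 mice of Study 2. In Study 4 it was 6.18 in vehicle, 5.92 in Cpd6 and 6.35 in Cpd18 mice, and Acacb was not called against vehicle in either study. Without Cpd2 replicates 2, 3, 4 and 7, Acacb differed by -1.07 (0.00281) and Eci2 by -0.26 (0.062) in Study 1. Eci2, an isomerase for unsaturated chains, fell by 0.37 with Cpd2 in Study 1 (0.000355) and by 0.37 with Cpd6 in Study 4 (0.0117). Bdh2, a member of the short-chain dehydrogenase family, fell by 0.67 with Cpd6 in Study 4 (0.00678), and Ppargc1b, the coactivator PGC-1 beta, rose by 0.50 (0.0161). Crot fell by 0.61 in the same comparison (adjusted p = 0.0179), a call lost in 2 of the fits that left out 1 mouse.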

How the data were processed

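Skin RNA was amplified and hybridised to custom Affymetrix mouse arrays. The authors normalised the arrays by RMA, per the labels, and deposited 1 table of linear intensities, here log2-transformed. The version of RMA and the array's build are not given in the sources used here, and by the study's methods biopsies could be dorsal or ventral. The lowest and highest array medians were 26.39 and 30.78. Of 38385 probesets, 24478 named 1 gene, 65 several and 13842 none. Those whose mean over all arrays was under the 25th percentile (2.93 log2) were left out in place of the authors' present calls, which left 28789. A gene was represented by its probeset of highest mean.

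Groups came from the labels. limma 3.58.1 (R 4.3.3) was fitted per study, with 1 mean per group, 1 spread shared by its groups and an intensity trend, adjusted by Benjamini-Hochberg. The methods' test was one-way ANOVA. Differences between studies used 1 fit of 48 arrays. The fits were tested on simulated data. Summaries used pandas 2.3.3 and figures matplotlib 3.10.9. Arrays give no depth, and their number limits the precision.

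All members may be named. Values by mouse were given for Cpt1b, Cpt1a, Acadl, Oxct1, Pdk4, Ucp3, Ppara and Ppargc1a and for called members whose groups did not overlap. Some called genes of the related list were named, not strictly by size of change, and others were left out. Other members quoted by range were named after their values were seen. Members, lists, markers and the muscle score were chosen with earlier results of these data known. Alternatives were other filters, scalings, tests, covariates (muscle, adipocyte and hair follicle scores), probesets, a replicate block and the leaving out of mice.

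The main fits did not pair samples by replicate number. The deviations of same-numbered mice correlated over 0.1 in 5 of 24 pairs of groups' mice in Study 1, 3 of 12 in Study 2 and 7 of 12 in Study 4. The highest correlation was 0.379, in Study 4, so this check does not exclude pairing there.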

Additional observations from a re-analysis of the deposited data

Results flagged for a closer look

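In 64 sets of values (a group and a called member), 8 held a mouse whose gap to the nearest other was large for the range of its group (Dixon's 95% limit), where chance alone would give about 1 in 20. Of these, 6 were low values of vehicle replicate 4 of Study 1: Cpt1b at 5.98 (nearest 8.14), Pdk4 at 10.2 (11.34), Ucp3 at 5.22 (6.48), Mlycd at 7.6 (8.44), Acad11 at 8.22 (8.78) and Slc25a20 at 9.49 (9.91). The same mouse had the lowest muscle score (9.97), the lowest adipocyte score (9.93) and the highest hair follicle score (11.51) of its group. The other 2 were Cpd6 replicate 4 of Study 4, low in Acot13 at 10.08 (nearest 10.25) and high in Ucp3 at 7.85 (7.62).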

How the results depend on the processing

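Calls for Cpd2 minus vehicle in Study 1 were 12, with 13.1% of all probesets called. They came to 4 by the methods' test after adjustment and 5 at its own threshold. They came to 0 with the muscle score as a covariate (3.27% of all probesets) and 1 without the 3 Cpd2 mice lowest in it (4.65%). In fits chosen after seeing the data, they came to 0 without the 4 under 9 (3.36%) and 3 without these and vehicle replicate 4. Leaving out 1 mouse gave 5 (without Cpd2 replicate 7 or vehicle replicate 2) to 17 (without vehicle replicate 4). The median moved to -0.09 with the muscle score, and that of the Cpd2 effect in Study 1 minus Study 2 to -0.14. For Cpd1 minus vehicle (0), 1 fit of all arrays, the methods' threshold and the muscle score (0.629% of all probesets) each called 1 (Ucp3). The adipocyte score called 1 (Acadsb, 1.44%) and the added hair follicle score 3 (2.42%), and leaving out 1 mouse gave 0. For Cpd2 minus Cpd1 (18), the muscle score and the absence of the 4 mice each gave 5 (5.5% and 4.62% of all probesets). The absence of the 3 mice gave 7 (6.05%), and single mice gave 15 to 18. In Study 2, the methods' threshold called 1 for Cpd2 minus Cpd6 (Pdk4), and single mice gave 0 to 1 for Cpd6 minus vehicle. For Cpd6 in Study 4 (7), 1 fit of all arrays gave 3 and the methods' test after adjustment 2. The muscle score gave 1 (3.78% of all probesets), the adipocyte score 4 (7.12%) and the hair follicle score 0 (1.41%). Single mice gave 2 (without Cpd6 or vehicle replicate 4) to 6. The Cpd2 effect between studies ran from 0 to 10 over single mice. For the muscle slope (2), the absence of the 4 mice gave 14 (11.0% of all probesets) and single mice 2 to 5 (without Cpd2 replicate 3). The replicate block gave 8 for Cpd2 minus vehicle (12), 18 for Cpd2 minus Cpd1, 7 for Cpd6 in Study 4 (6 of them shared) and 2 slopes, and 0 elsewhere. Over 39 called results of single members, 812 alternatives kept the call, 267 lost it and 0 reversed its direction. Where no share of all probesets stands beside a count here, a change is not shown to be particular to the members. The causes were not tested.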
